A study of Mus musculus with 9 samples.

Results

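RNA of splenic B cells was compared between 2 Eµ-PRMT5/TCL1 mice and 2 Eµ-TCL1 mice at 6 months of age, 4 of the 9 libraries of the series. The groups were taken from the label that names genotype, age and replicate. The labels give the strain of all mice as C57BL/6N, while the study's methods place the Eµ-TCL1 parents on C57BL/6J, and all mice carried the human TCL1 transgene (Eµ-hTCL1), which drives a leukemia resembling chronic lymphocytic leukemia (CLL). The Eµ-PRMT5/TCL1 mice carried human PRMT5 as well (Eµ-hPRMT5/hTCL1), expressed in B cells from a mouse VH promoter and the IgH-µ enhancer. The other 5 libraries, from 2 Eµ-TCL1 and 3 Eµ-PRMT5/TCL1 mice at 3 months, entered the fit to estimate the spread and served the test of whether the difference between genotypes changed with age. The PRMT5 transgene came from 1 selected founder line, which limits what it stands for. B cells were taken from the spleen with a negative-selection kit, and each library came from 1 mouse. Genes on chromosomes X and Y were left out, which left 50654 of 54838 genes, and 18216 of them had enough counts to be tested.

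PRMT5 places symmetric dimethyl marks on arginines of histones, of the Sm proteins of the spliceosome and of other proteins, using S-adenosylmethionine as the methyl donor, and it works in a complex with Wdr77. TCL1 is a coactivator of the kinase AKT. In Eµ-TCL1 mice, CD5+ B cells of the B1a type expand slowly in the spleen and blood. The question of the comparison was how the transcriptome of B cells that carry both transgenes differs from that of B cells with TCL1 alone.

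The deposited values were raw fragment counts per gene. The totals of the 4 libraries were 17330246 and 15545370 for Eµ-TCL1 and 16487984 and 14783012 for Eµ-PRMT5/TCL1. Levels are given as CPM (counts scaled to library size) of the tested genes after scaling. Against the totals above, before filtering and scaling, 3 counts corresponded to between 0.173 and 0.203 CPM in these libraries. Fold changes are on the log2 scale with their standard error (SE), and a gene passed at a Benjamini-Hochberg adjusted p under 0.05 in edgeR's quasi-likelihood test. The human transgenes were not in the annotation used for counting, so they gave no check of the genotypes. Mice of a group differed from each other by far more than sampling noise, with a median absolute log2 difference between the mice of 0.306 for Eµ-PRMT5/TCL1 and 0.267 for Eµ-TCL1. Principal components were taken of the 500 most variable genes. On the first (46.5% of the variance of these genes) the Eµ-PRMT5/TCL1 mice lay at 24.7 and 50.6, above all other libraries. On the second (25.2%) they lay far apart at -34 and 18.5.

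Sex-linked expression separated the 4 mice in the same way as genotype. The summed counts of Y-linked genes were 10434 and 7872 in the Eµ-TCL1 mice and 1 and 2 in the Eµ-PRMT5/TCL1 mice, and Xist had 18 and 12 counts against 26101 and 24417. At this age, sex and genotype cannot be told apart. At 3 months, 1 of the 3 Eµ-PRMT5/TCL1 libraries and neither Eµ-TCL1 library had Y-linked counts above 3.

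Of the 18216 genes tested, 2156 (11.8%) differed between Eµ-PRMT5/TCL1 and Eµ-TCL1 at 6 months. In Eµ-PRMT5/TCL1, 1165 genes (6.4%) were higher and 991 (5.44%) were lower. The absolute log2 fold change was over 1 for 545 of the higher and 720 of the lower genes, and the median log2 fold change was 0.93 among the higher and -1.38 among the lower genes, against -0.007 over all genes tested. The smallest adjusted p was 0.000422. In all 2156 genes the 2 mice of one genotype lay outside the range of the 2 of the other, as they did in 9555 of the 18216 genes tested. In 94.3% of the 2156 genes both Eµ-PRMT5/TCL1 mice also lay outside the range of all 7 other libraries, 1113 of them above and 921 below, compared with 33.1% of all genes tested. The 7 libraries include the 2 that chose these genes.

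**Figure D1:**
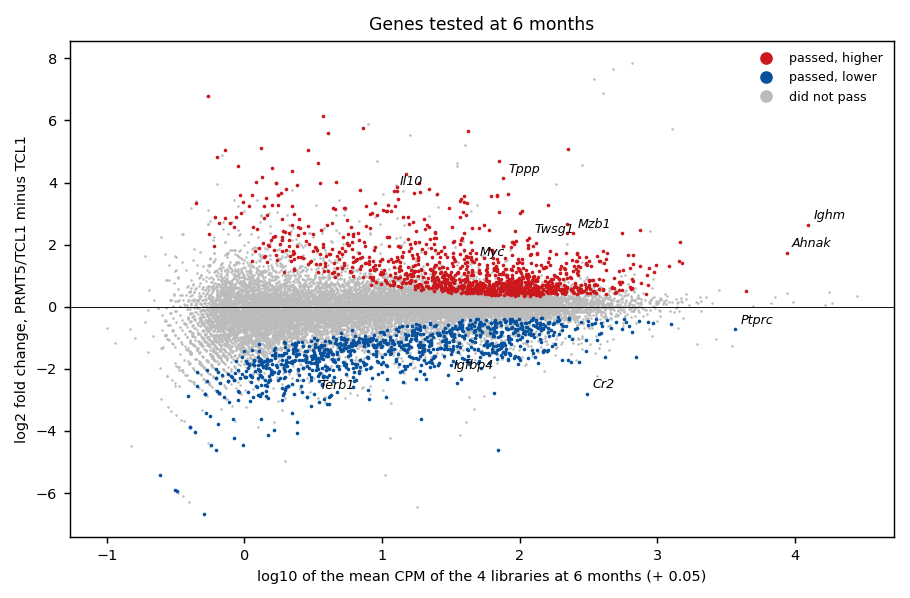
Log2 fold change of every gene tested at 6 months (Eµ-PRMT5/TCL1 minus Eµ-TCL1, y axis) against the log10 of its mean CPM in the 4 libraries (x axis), 1 point per gene. The 1165 genes that passed and were higher are in red, the 991 that passed and were lower in blue and the others in grey, and 11 genes are named.

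The calls depended on the spread estimated from all 9 libraries. The chi-square per gene between 2 mice of a group was 33.4 for Eµ-TCL1 and 67.9 for Eµ-PRMT5/TCL1 at 6 months. At 3 months it ran from 7.96 to 13.9. The pooled spread can therefore be too small for the 4 mice compared. With only the 4 libraries at 6 months, 0 genes passed in edgeR (smallest adjusted p 0.0519) while 3143 were at an unadjusted p under 0.05, and with Y-linked expression or the level of the T-cell list as a covariate 0 passed as well, with 2226 and 334 genes at an unadjusted p under 0.05. DESeq2 on all 9 libraries called 2502 genes. Without Eµ-TCL1 replicate 1 or 2, 1155 and 1125 genes passed, and without Eµ-PRMT5/TCL1 replicate 1, 3616 did.

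Markers of cells other than B cells were measured first, since the kit removes such cells by negative selection. All 20 markers of T cells were lower in Eµ-PRMT5/TCL1 and all 20 passed (17 without Eµ-TCL1 replicate 1, Eµ-TCL1 replicate 2 or Eµ-PRMT5/TCL1 replicate 2), with log2 fold changes from -1.84 to -1.03 and a median of -1.48. Their summed level was 2810 and 2500 CPM in the Eµ-TCL1 mice and 1060 and 856 CPM in the Eµ-PRMT5/TCL1 mice, and from 1770 to 2400 CPM in the 5 libraries at 3 months. No marker was at 0. The constant segment of the T-cell receptor beta chain Trbc1 fell from 167 and 137 to 41.7 and 43.1 CPM (log2 fold change -1.84 ± 0.132 SE, adjusted p = 0.00097), and Cd3e, a chain of the CD3 complex, from 60.7 and 54.1 to 20.7 and 16.2 CPM (-1.64 ± 0.239, adjusted p = 0.00496). Markers of both helper and cytotoxic T cells fell, with Cd4 at -1.36 and Cd8a at -1.68. In bulk samples, fewer cells of a type and less RNA per cell cannot be told apart.

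Of 11 tested markers of natural killer (NK) cells, 9 fell, including the receptor genes Klrc1 (45.2 and 30.1 to 9.83 and 10.1 CPM, log2 fold change -1.92), Klrd1 (-1.77), Klrk1 (-1.71) and Klrb1c (-1.64), and the list's median was -1.45. The NK count fell to 4 without Eµ-TCL1 replicate 1 and to 2 without Eµ-PRMT5/TCL1 replicate 2, where Klrk1 and Klrb1c no longer passed (adjusted p = 0.0732 and 0.0634). Klrb1c also failed without Eµ-TCL1 replicate 1 (adjusted p = 0.0621), and 13.9% of its exon bases lie in another gene on the same strand. None of the 14 myeloid markers passed in edgeR or DESeq2, and 2 were at an unadjusted p under 0.05. Their sum was 15300 and 9250 CPM in the Eµ-TCL1 mice and 10100 and 1380 CPM in the Eµ-PRMT5/TCL1 mice, so that replicate 2 of the double transgenic mice held the least, and the neutrophil protein gene S100a9 was at 6560, 3260, 3730 and 399 CPM in that order. Of 7 dendritic cell markers only Itgax, an integrin, fell (log2 fold change -1.01, adjusted p = 0.0202), which it did not without Eµ-TCL1 replicate 1 or 2 (adjusted p = 0.054 and 0.102). Without Eµ-PRMT5/TCL1 replicate 1, 3 myeloid and 5 dendritic markers fell. None of the 5 erythroid and platelet markers tested passed in edgeR or DESeq2, and 0 were at an unadjusted p under 0.05. Of 4 stromal markers, Cdh5, which marks endothelial cells, passed narrowly in edgeR, at 1.55 and 1.13 against 2.42 and 3.9 CPM (1.22 ± 0.338, adjusted p = 0.0486). It did not pass in DESeq2, with upper-quartile factors, without a filter or after thinning, nor in 8 of the 9 fits that left out a library (adjusted p up to 0.24).

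**Figure D2:**
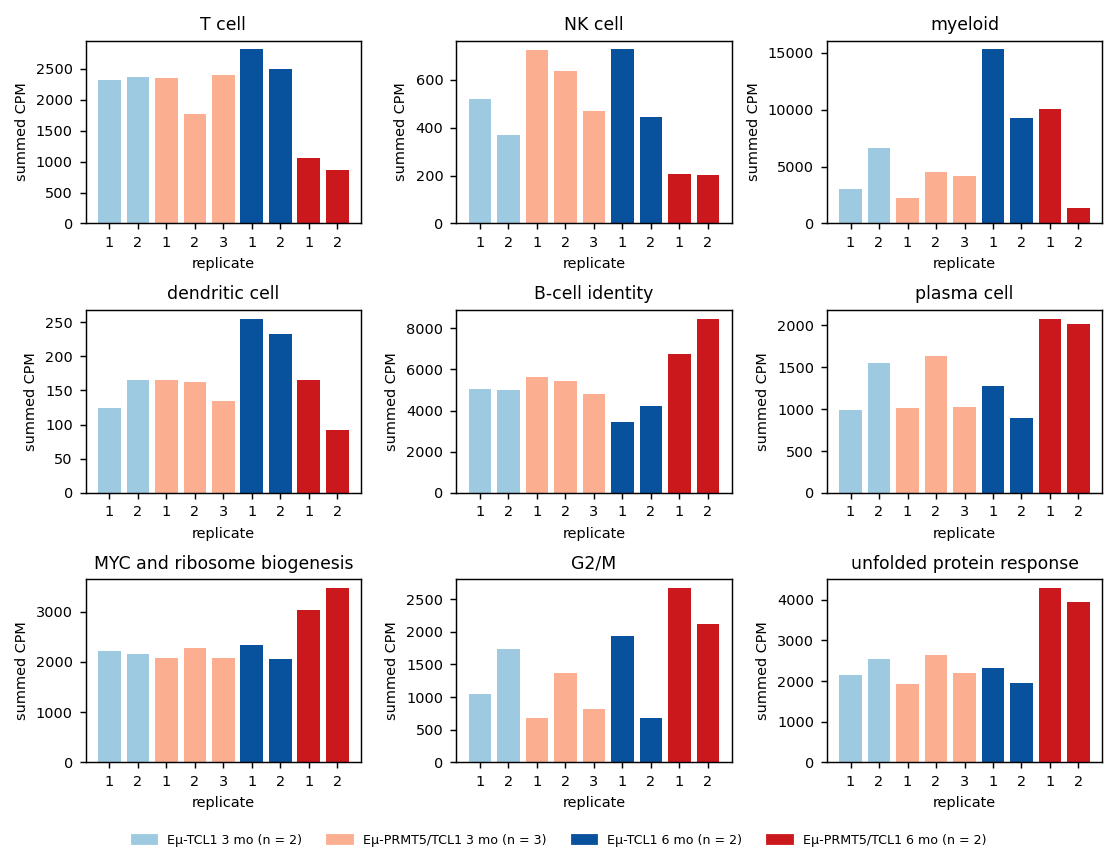
Summed CPM of the tested members of 9 gene lists (y axis, from 0) in each library (x axis, replicate number), 1 bar per mouse, coloured by genotype and age. The T-cell list is at 1060 and 856 CPM in the double transgenic mice at 6 months, while the 7 other mice are at 1770 CPM or more, and the G2/M list is at 1940 CPM in one Eµ-TCL1 mouse at 6 months and 673 CPM in the other.

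The 12 protein-coding genes taken by the smallest adjusted p among the higher genes, ties going to the larger fold change, rose by 1.42 to 4.14 on the log2 scale, with adjusted p of at most 0.0015. Blk, Ms4a1 and Ly86, described with the B-cell genes, tied with the last of the 12 at an adjusted p of 0.0015. Twsg1, a secreted binding partner of bone morphogenetic proteins, was at 40.4 and 42.8 CPM in Eµ-TCL1 and at 171 and 211 CPM in Eµ-PRMT5/TCL1 (log2 fold change 2.20 ± 0.123 SE, adjusted p = 0.000422). In the 5 libraries at 3 months Twsg1 lay between 40.7 and 51.3 CPM, so only the 2 double transgenic mice at 6 months stood apart. Il10, a cytokine that dampens immune responses, rose from 1.79 and 1.6 to 23.9 and 21.4 CPM (3.73 ± 0.261, adjusted p = 0.00097). Tnfrsf8, which encodes the activation receptor CD30, was at 6.46 and 7.54 CPM against 85.1 and 58.5 CPM (3.36 ± 0.298, adjusted p = 0.00147). Nrp2, a coreceptor for semaphorins and VEGF, was at 16.7 and 13.5 against 118 and 71.2 CPM (2.65 ± 0.242, adjusted p = 0.00147).

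Tppp, a tubulin-binding protein, had the largest log2 fold change of the 12, with 10.4 and 5.87 CPM in Eµ-TCL1 and 164 and 123 CPM in Eµ-PRMT5/TCL1 (4.14 ± 0.335, adjusted p = 0.00147). Capg, an actin-capping protein, rose from 125 and 110 to 310 and 322 CPM (1.42 ± 0.109), Cnn3, a calponin, from 34.9 and 43.9 to 114 and 118 CPM (1.56 ± 0.139), and the septin gene Sept11 from 127 and 142 to 382 and 430 CPM (1.59 ± 0.128). Gas7 rose from 54 and 48.5 to 252 and 175 CPM and Bcar3, an adaptor in integrin signalling, from 54.1 and 71.8 to 211 and 200 CPM. The remaining 2 were Fah, the last enzyme of tyrosine breakdown, at 6.76 and 5.41 against 56.8 and 54 CPM, and the kinase gene Alpk2 at 12.4 and 14.4 against 63.2 and 61.7 CPM. Of the exon bases of Cnn3 and Bcar3, 17.7% and 12.5% overlap a gene on the opposite strand, and the counting used no strand option.

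The 11 lower genes given here by the same rule fell by 1.41 to 2.82 on the log2 scale. Cr2, the complement receptor CD21 of mature B cells, was at 571 and 503 CPM in Eµ-TCL1 and 96.2 and 57.4 CPM in Eµ-PRMT5/TCL1 (-2.81 ± 0.24, adjusted p = 0.00147), and between 588 and 889 CPM at 3 months. Igfbp4, which binds insulin-like growth factors, fell from 48.8 and 50.5 to 11.9 and 9.74 CPM (-2.19 ± 0.149, adjusted p = 0.00097), and Rapgef4, an exchange factor for the small GTPase Rap activated by cyclic AMP, from 61.5 and 56.9 to 12.4 and 8.96 CPM (-2.47 ± 0.188, adjusted p = 0.00117). Terb1, a telomere protein of meiosis, fell from 5.74 and 5.27 to 0.693 and 0.857 CPM (-2.82 ± 0.274). Satb1, a chromatin organizer that is high in developing T cells, was at 363 and 362 CPM against 120 and 92.8 CPM (-1.77 ± 0.17). Others of the 11 are known from T and NK cells, among them Grap2, an adaptor of T-cell receptor signalling (209 and 226 to 77.5 and 84.6 CPM), and Cd226, an activating receptor (73.8 and 60.2 to 19.1 and 18.2 CPM). Limd2, the kinase gene Tnik, Ifi208 and Tdrp completed the 11, with log2 fold changes of -1.41, -1.55, -2.33 and -1.79. Of the 991 lower genes, 460 had a log2 fold change within the range of the T-cell list, and the part of the fall of that list in theirs was not tested beyond the covariate fit. The 25th and 75th percentiles of the absolute log2 fold change of the lower genes were 0.93 and 1.84. The count within that range therefore does not mark genes of T cells. All 23 genes of both directions lay outside the range of the 7 other libraries.

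**Figure D3:**
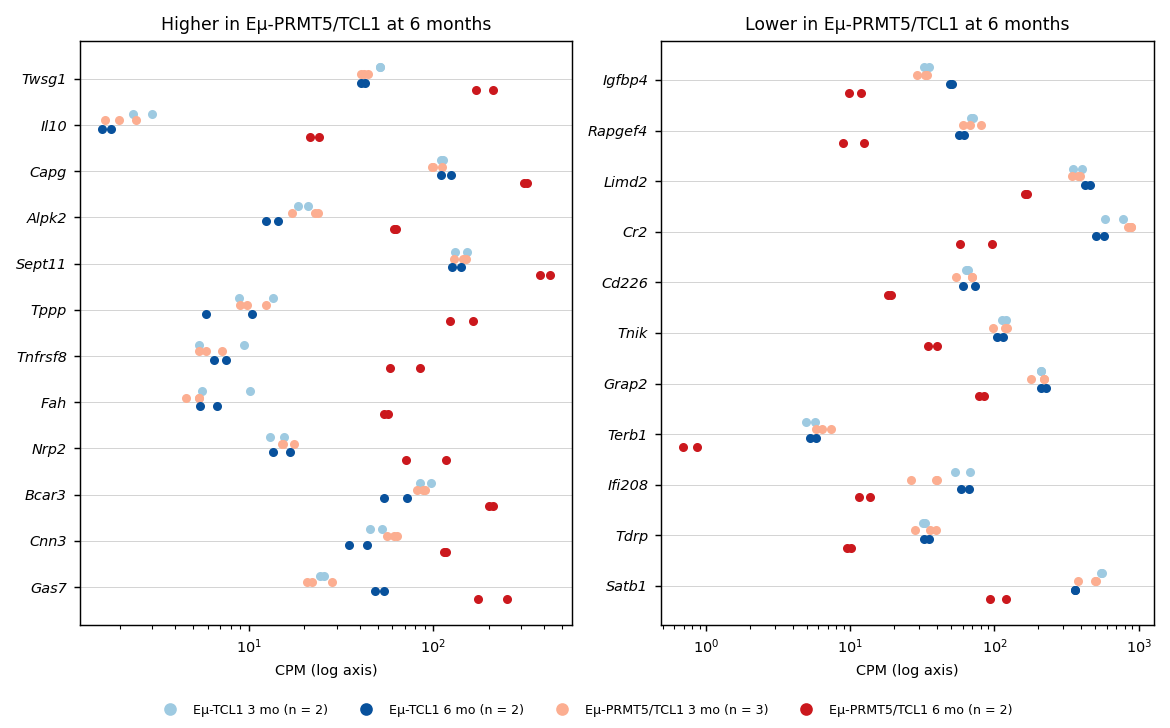
CPM (log axis) of the 23 leading genes, 12 higher and 11 lower, 1 point per library, coloured by genotype and age. Both Eµ-PRMT5/TCL1 mice at 6 months lie above the 7 other libraries for each gene on the left and below them for each gene on the right.

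The lists of B-cell genes were then counted against the background of 6.4% higher and 5.44% lower. Of 13 genes of B-cell identity, 5 rose and none fell, with a median log2 fold change of 0.90. The median was 0.56 without Eµ-TCL1 replicate 1 or Eµ-PRMT5/TCL1 replicate 2, and 1 member fell without the latter, while DESeq2 called 8 higher. Ms4a1, which encodes CD20, rose from 750 and 785 to 1920 and 2350 CPM (1.47 ± 0.14, adjusted p = 0.0015), and the kinase gene Blk from 180 and 180 to 570 and 694 CPM (1.81 ± 0.174). Fcrla, an Fc receptor-like protein inside B cells (1.58 ± 0.208), Ly86 (1.33 ± 0.124) and Cd79b, a signalling chain of the B-cell receptor (1.11 ± 0.182), also rose. Pax5 and Ebf1, the transcription factors that set B-cell identity, had log2 fold changes of 0.33 and 0.35 with SE of 0.332 and 0.225 and did not pass. The list's sum was 3420 and 4230 CPM in Eµ-TCL1 and 6750 and 8460 CPM in Eµ-PRMT5/TCL1, beside the fall of the T-cell and NK lists, whose part in it was not tested.

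Of 11 genes of follicular B cells, 5 fell and 1 rose. Besides Cr2, Fcer2a, the low-affinity IgE receptor CD23, fell from 82.3 and 147 to 20 and 13.3 CPM (-2.78 ± 0.384, adjusted p = 0.00644), Bach2, a repressor of plasma cell genes, from 65.6 and 98.1 to 30.1 and 36.6 CPM (-1.29 ± 0.201) and Ccr7, the receptor that guides lymphocytes to the T zone, from 83.1 and 112 to 38.4 and 45.8 CPM (-1.22 ± 0.188). T cells also express Ccr7 and Bach2. Cxcr5, the receptor that guides cells to follicles, went the other way, from 159 and 169 to 300 and 434 CPM (1.16 ± 0.175, adjusted p = 0.00497). At least 5 members were lower without any 1 of the 4 libraries, and 3 were higher without Eµ-PRMT5/TCL1 replicate 1. Of 8 marginal zone genes 1 rose, S1pr3 (17.8 and 40 to 193 and 118 CPM), and 1 fell, Cd1d1 (59.2 and 63.1 to 27.2 and 30.1 CPM), with 2 lower without Eµ-TCL1 replicate 1. In edgeR none of 9 germinal centre genes passed and 3 had an unadjusted p under 0.05, while 2 fell in DESeq2 and 5 fell in edgeR without Eµ-PRMT5/TCL1 replicate 1. Bcl6, the master regulator of germinal centres, was at 36.2 and 64.5 CPM against 33.4 and 11.1 CPM.

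Of 12 genes of B1a and CLL cells, Ror1 and Fmod were not tested, 6 rose and 3 fell, with a median of 1.51. Zbtb32, a transcriptional repressor of lymphocytes, rose from 11.8 and 12.9 to 167 and 139 CPM (3.63 ± 0.384, adjusted p = 0.00259) and Bhlhe41, a transcription factor needed for B1a cells, from 14.2 and 16.8 to 94.1 and 160 CPM (3.04 ± 0.517). Fcrl5 (1.89 ± 0.272), Pstpip2 (2.02 ± 0.422), Plscr1 and Arid3a also rose. Lef1, a transcription factor of the Wnt pathway that is high in human CLL and also in T cells, fell from 107 and 120 to 33.3 and 40.5 CPM (-1.61 ± 0.232, adjusted p = 0.00495). Cd5, the surface marker of B1a and CLL cells that T cells carry as well, fell from 66.3 and 93.9 to 45.6 and 57.7 CPM (-0.63 ± 0.175, adjusted p = 0.0481), and Spn, which encodes CD43, passed at -0.49 ± 0.115. The list had 2 lower genes rather than 3 in each of the 4 fits that left out a library at 6 months. The call of Cd5 was lost without Eµ-TCL1 replicate 2 or Eµ-PRMT5/TCL1 replicate 1 (log2 fold change -0.37 and -0.476). It was also lost without each library at 3 months, so in 7 of the 9 fits that left out 1 library. Without Eµ-TCL1 replicate 2 the list had 3 higher genes, with Bhlhe41 and Pstpip2 among those that no longer passed (adjusted p = 0.0804 and 0.135), and both were also lost without Eµ-TCL1 replicate 1. Of the exon bases of Bhlhe41 and Pstpip2, 19% and 14.8% overlap a gene on the opposite strand.

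Of 12 plasma cell genes 6 rose and none fell, with a median of 1.28. Mzb1, a chaperone of antibody assembly, rose from 91.4 and 66.9 to 325 and 487 CPM (2.36 ± 0.342, adjusted p = 0.007), Prdm1, which encodes the plasma cell regulator Blimp-1, from 13.8 and 11.4 to 53.6 and 55.5 CPM (2.11 ± 0.238, adjusted p = 0.00218), and Irf4 from 158 and 180 to 545 and 388 CPM (1.47 ± 0.175). Derl3, a factor that removes misfolded proteins from the endoplasmic reticulum, was at 5.14 and 5.54 against 20.5 and 20.8 CPM (1.95 ± 0.28), and Ell2 at 32.8 and 31.8 against 69 and 68.3 CPM. Markers of mature plasma cells did not pass. Sdc1 (CD138) was at 13.5 and 7.21 against 19.9 and 18.8 CPM, Jchain at 689 and 324 against 511 and 521 CPM and Tnfrsf17 at 2.27 and 1.07 against 2.08 and 2.96 CPM. Xbp1, the factor that expands the secretory pathway, was at 144 and 157 against 319 and 219 CPM (0.84 ± 0.294, adjusted p = 0.11). The calls of Mzb1 and Creld2 were lost without Eµ-TCL1 replicate 2 (adjusted p = 0.0524 and 0.0735).

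Of 17 genes of the unfolded protein response, 6 rose and none fell, with a median of 0.52. Creld2, a secreted disulfide isomerase, rose from 42.7 and 29.2 to 148 and 126 CPM (1.93 ± 0.329, adjusted p = 0.0111), Pdia4 from 359 and 285 to 846 and 1180 CPM (1.65 ± 0.225), Hsp90b1 (GRP94) from 289 and 229 to 637 and 532 CPM (1.17 ± 0.204), Manf from 44.7 and 35.4 to 90.4 and 71 CPM (1.01 ± 0.207), Pdia6 from 97.9 and 95.1 to 170 and 175 CPM (0.84 ± 0.121) and Hspa5 (BiP), the main chaperone of the endoplasmic reticulum, from 517 and 434 to 950 and 745 CPM (0.83 ± 0.219). Ddit3 (CHOP) and Atf4, of the PERK arm of the response, were at 16.8 and 22 against 21.5 and 18.8 CPM and at 120 and 97.1 against 124 and 131 CPM and did not pass. Without Eµ-TCL1 replicate 2 only 2 of the 17 passed, and Creld2, Hsp90b1 and Manf were at adjusted p of 0.0735, 0.0604 and 0.0974 in that fit. Without Eµ-PRMT5/TCL1 replicate 1, 5 members rose and 1 fell. Creld2 belongs to both lists. Hsp90b1 shares 10.3% of its exon bases with a gene on the opposite strand.

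The promoters of some of these genes are shown because they hold a known element of this response. The endoplasmic reticulum stress element (ERSE) is CCAAT followed after 9 bases by CCACG, on either strand, and is bound by ATF6 together with NF-Y. In RefSeq promoter windows of 300 bases (250 before to 50 after the annotated start, GRCm38.p6), it was found in 5 of the 16 members of the list with a window, Hspa5, Hsp90b1, Pdia6, Creld2 and Calr, and in 37 of 27025 genes (0.137%). The first 4 of these rose, and they were 4 of the 5 members that passed and had a window. Calr was at 106 and 88.2 against 134 and 125 CPM and did not pass (adjusted p = 0.0748). A match is a description of the letters, and binding was not measured. The list was made of genes known from this response, so its share with the element is no separate finding. Whether the element had a part in the rise was not tested. The windows of the 4 lie at chr2:34771840-34772139, plus strand (Hspa5), chr10:86705395-86705694, minus strand (Hsp90b1, with 2 matches), chr12:17266339-17266638, plus strand (Pdia6) and chr15:88819396-88819695, plus strand (Creld2). They are printed 5′ to 3′ on the strand of the gene, with the ERSE in capitals, which reads CGTGG first where it lies on the other strand:
Hspa5: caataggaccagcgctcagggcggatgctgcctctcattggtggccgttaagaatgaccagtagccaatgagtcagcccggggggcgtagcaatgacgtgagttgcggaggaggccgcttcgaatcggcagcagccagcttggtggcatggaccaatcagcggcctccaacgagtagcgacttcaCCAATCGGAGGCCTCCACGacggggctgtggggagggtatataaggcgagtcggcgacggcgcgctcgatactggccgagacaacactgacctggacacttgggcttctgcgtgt
Hsp90b1: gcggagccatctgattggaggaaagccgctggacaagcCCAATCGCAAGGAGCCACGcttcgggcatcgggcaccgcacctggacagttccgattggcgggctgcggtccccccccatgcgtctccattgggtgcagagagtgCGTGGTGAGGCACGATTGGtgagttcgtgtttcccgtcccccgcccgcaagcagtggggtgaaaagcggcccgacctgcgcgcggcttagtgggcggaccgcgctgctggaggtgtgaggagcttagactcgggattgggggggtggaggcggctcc
Pdia6: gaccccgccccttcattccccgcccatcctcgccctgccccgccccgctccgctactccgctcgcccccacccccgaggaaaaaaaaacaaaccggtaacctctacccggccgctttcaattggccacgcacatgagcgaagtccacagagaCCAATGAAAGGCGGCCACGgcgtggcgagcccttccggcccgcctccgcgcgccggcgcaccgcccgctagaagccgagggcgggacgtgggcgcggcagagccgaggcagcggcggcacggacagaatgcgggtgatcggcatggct
Creld2: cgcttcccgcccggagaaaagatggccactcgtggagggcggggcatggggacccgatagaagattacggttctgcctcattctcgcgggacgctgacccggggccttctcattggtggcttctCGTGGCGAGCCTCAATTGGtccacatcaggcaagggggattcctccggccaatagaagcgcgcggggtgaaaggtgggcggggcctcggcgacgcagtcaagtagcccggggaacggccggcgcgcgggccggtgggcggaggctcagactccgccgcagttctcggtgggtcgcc

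Immature B-cell genes gave 2 higher and 1 lower of 7 tested, with Rag2 and Igll1 not tested. Cd24a, a surface glycoprotein of immature B cells, rose from 352 and 309 to 818 and 648 CPM (1.15 ± 0.158) and the transcription factor gene Myb from 54.7 and 40.3 to 86 and 112 CPM (1.06 ± 0.186). Dntt, which adds bases at V(D)J junctions, fell from 5.2 and 2.67 to 0.831 and 0.701 CPM (-2.35 ± 0.43) and lost its call without Eµ-TCL1 replicate 1 (adjusted p = 0.0504), where 2 other members were lower. Sox4 was at 3.35 and 39.7 CPM in Eµ-TCL1 and at 1.45 and 0.779 CPM in Eµ-PRMT5/TCL1, so one Eµ-TCL1 mouse alone was high, and it did not pass (adjusted p = 0.0572). Of its exon bases, 54.6% overlap a gene on the opposite strand. Cd93 was at 50.4 and 58.1 CPM against 72.3 and 61.9 CPM and did not pass (adjusted p = 0.177).

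Myc, the transcription factor that drives cell growth, was at 24.8 and 25 CPM in Eµ-TCL1 and 56.9 and 79.1 CPM in Eµ-PRMT5/TCL1 (1.45 ± 0.173, adjusted p = 0.00238), and between 30.2 and 36.5 CPM at 3 months. Of the 28 genes of the MYC and ribosome biogenesis list 18 rose and none fell, with a median log2 fold change of 0.55. The sizes were smaller than those of the leading genes. Srm, which makes spermidine, rose from 15.8 and 12.2 to 33.9 and 33.7 CPM (1.27 ± 0.23), Ppan from 33.4 and 40.4 to 66.8 and 92.7 CPM (1.11 ± 0.168) and Nop16 from 19.2 and 17.5 to 37 and 40.1 CPM (1.07 ± 0.178), the last 2 being nucleolar proteins. The polymerase I subunits Polr1b (0.86 ± 0.115) and Polr1a (0.66 ± 0.126) and the snoRNP proteins Nop56 (0.64 ± 0.117) and Nop58 (0.63 ± 0.131) were among those that rose. Nucleolin (Ncl) at 0.52 and nucleophosmin (Npm1) at 0.55 did not pass (adjusted p = 0.0749 and 0.0967). The count was 11 without Eµ-TCL1 replicate 1 and 8 without Eµ-TCL1 replicate 2, where Srm did not pass (adjusted p = 0.0633), and no member was lower in any of the 4 fits that left out a library at 6 months. The E-box CACGTG, which reads the same on both strands and is bound by MYC and related factors, was found in the promoter windows of 6 of the 21 members with a window, 3 of them among 14 that passed (Pes1, Nme1 and Utp20), and in 8.09% of 27025 genes. The list was made of genes known from MYC and ribosome biogenesis, so its share with the E-box is no separate finding. Whether the E-box had a part in the rise was not tested.

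Genes of one-carbon metabolism and nucleotide synthesis gave 8 higher and 0 lower of 20, with a median of 0.49. Phgdh, the first enzyme of serine synthesis, rose from 60.1 and 43.5 to 99.9 and 142 CPM (1.22 ± 0.27, adjusted p = 0.0251), and Ctps, Mthfd1, Shmt2, Atic, Umps, Cad and Gart rose by 0.50 to 0.69. The count rested on single libraries, since 3 members passed without Eµ-TCL1 replicate 1, 0 without Eµ-TCL1 replicate 2 and 2 without Eµ-PRMT5/TCL1 replicate 2. Phgdh, Ctps, Mthfd1 and Shmt2 were each lost in all 3 of these fits (adjusted p = 0.0505 to 0.14).

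Cell cycle genes differed between the 2 Eµ-TCL1 mice. All 31 G2/M genes had positive log2 fold changes with a median of 0.79, of which edgeR called none (3 had an unadjusted p under 0.05), while 1 passed in DESeq2. Mki67, the proliferation marker Ki-67, was at 678 and 205 CPM in Eµ-TCL1 and 1010 and 805 CPM in Eµ-PRMT5/TCL1 (1.04 ± 0.624, adjusted p = 0.336), and Top2a at 319 and 99.7 against 460 and 348 CPM (0.95 ± 0.623). The summed level of the list was 1940 and 673 CPM in Eµ-TCL1 and 2670 and 2120 CPM in Eµ-PRMT5/TCL1, and from 685 to 1740 CPM at 3 months. The median was 1.75 without Eµ-TCL1 replicate 1 and 0.24 without Eµ-TCL1 replicate 2. Of 29 S phase genes 5 rose, Uhrf1, Exo1, E2f1, Ccne1 and Mcm6, by 0.77 to 1.39. Ccne1, the cyclin that starts DNA replication, was at 17 and 15.7 against 25.5 and 37.2 CPM (0.94 ± 0.187, adjusted p = 0.0139). The S phase count was 0 without Eµ-TCL1 replicate 2 or Eµ-PRMT5/TCL1 replicate 2 and 3 without Eµ-PRMT5/TCL1 replicate 1, and Uhrf1, Exo1, E2f1 and Ccne1 were then at adjusted p from 0.054 to 0.192 in the fits where they failed. Of 15 G1 regulators only Rb1, the retinoblastoma gene, rose, while without Eµ-PRMT5/TCL1 replicate 1 4 rose and 3 fell. Rb1 was at 148 and 138 against 220 and 266 CPM (0.76 ± 0.123), and 14.9% of its exon bases overlap a gene on the opposite strand. Ccnd2 was at 655 CPM in one Eµ-PRMT5/TCL1 mouse and at 156, 151 and 178 CPM in the other 3 and did not pass. None of the 17 genes of the BCL2 family and death receptors passed in edgeR or DESeq2, with 5 at an unadjusted p under 0.05, and without Eµ-PRMT5/TCL1 replicate 1 edgeR called 2 higher and 2 lower. Bcl2 was at 126 and 115 against 93.6 and 162 CPM.

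The mouse genes of arginine methylation were measured, not the human transgene. Prmt5 was at 34.1 and 38 CPM in Eµ-TCL1 and 56.9 and 47.5 CPM in Eµ-PRMT5/TCL1 (0.53 ± 0.127, adjusted p = 0.0282), and between 33.2 and 36.1 CPM in the 5 mice at 3 months, of both genotypes. Whether fragments of the human transgene were counted at mouse Prmt5 was not tested. Mat2a, which makes S-adenosylmethionine, rose from 163 and 141 to 298 and 279 CPM (0.92 ± 0.145, adjusted p = 0.0058), and 11.3% of the exon bases of Mat2a overlap a gene on the opposite strand. Prmt7 rose from 26.4 and 34.3 to 52.9 and 69.1 CPM (1.01 ± 0.168) and Prmt2 from 6.46 and 6.74 to 10.5 and 12.5 CPM (0.80 ± 0.195). These 4 were all that passed of 14 tested, and Prmt8 was not tested. The cofactor gene Wdr77 was at 23.3 and 24.4 against 25.6 and 28 CPM (0.17 ± 0.123, adjusted p = 0.413). Fewer passed without Eµ-TCL1 replicate 1 or 2. Prmt5 was lost without either of these or Eµ-PRMT5/TCL1 replicate 1 (log2 fold change 0.395 to 0.604). Prmt2 was lost without either or Eµ-PRMT5/TCL1 replicate 2 (0.668 to 0.823). With libraries at 3 months included, Prmt5 was lost in 5 and Prmt2 in 6 of the 9 fits that left out 1 library. Of 15 tested genes of the Sm proteins, substrates of PRMT5, and of the SMN complex that loads them, 2 rose, Gemin5 (52.2 and 55.8 to 75.1 and 74.6 CPM, 0.47 ± 0.0969) and Gemin7 (0.60 ± 0.138). These 2 are 13.3% of the list, near the 11.8% of all genes tested, and the 7 Sm genes did not pass. Gemin5 failed without Eµ-TCL1 replicate 1 (adjusted p = 0.0716), and Gemin7 without Eµ-TCL1 replicate 2 or Eµ-PRMT5/TCL1 replicate 2 (adjusted p = 0.128 and 0.0891).

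B-cell receptor signalling genes gave 7 higher and 1 lower of 18. Syk, the kinase that starts the signal, rose from 404 and 617 to 1170 and 1260 CPM (1.25 ± 0.181, adjusted p = 0.00428). Fcgr2b, the inhibitory Fc receptor, rose from 94.3 and 146 to 555 and 249 CPM (1.74 ± 0.392), and Cd81 (1.10 ± 0.203), the adaptors Dok3 (0.96 ± 0.209) and Blnk, the exchange factor Vav2 and the phospholipase Plcg2 rose as well. Ptprc, which encodes the phosphatase CD45 of all leukocytes, fell from 4430 and 4740 to 3290 and 2250 CPM (-0.73 ± 0.168, adjusted p = 0.0248). Without Eµ-TCL1 replicate 1 the list had 3 higher genes and 0 lower. Fcgr2b and Dok3 were lost without Eµ-TCL1 replicate 1 or 2 (log2 fold change 1.461 to 2.084 and 0.913 to 0.995) and Cd81 without replicate 2 (0.94). Fcgr2b was also lost without each library at 3 months, so in 7 of the 9 fits that left out 1 library.

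Costimulatory ligands rose while class II genes did not pass. Cd80 was at 13.4 and 13.1 CPM in Eµ-TCL1 and 68.8 and 83.9 CPM in Eµ-PRMT5/TCL1 (2.53 ± 0.311, adjusted p = 0.0031), and Cd86 at 42 and 43 against 102 and 116 CPM (1.36 ± 0.185, adjusted p = 0.00346). Cd83, which stabilizes class II molecules on the surface, rose from 96.1 and 84 to 165 and 269 CPM (1.27 ± 0.225) and was lost without Eµ-TCL1 replicate 1 or 2 (adjusted p = 0.05 and 0.0751). Cd40, the receptor for T-cell help, fell from 50.3 and 58.5 to 32.8 and 35.3 CPM (-0.68 ± 0.138) and was lost without Eµ-TCL1 replicate 2 (adjusted p = 0.0731), and 2 members of the list were lower without Eµ-PRMT5/TCL1 replicate 2. The class II chains H2-Aa, H2-Ab1 and H2-Eb1 had log2 fold changes of 0.26, 0.20 and 0.90 and did not pass.

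Of 20 genes of immune checkpoints and suppression 2 (10%) passed, near the 11.8% of all genes tested. Both rose, Il10 and Cd274, which encodes the checkpoint ligand PD-L1. Cd274 was at 56.5 and 73.8 CPM in Eµ-TCL1 and 166 and 112 CPM in Eµ-PRMT5/TCL1 (1.09 ± 0.205, adjusted p = 0.0117), and it failed without Eµ-TCL1 replicate 1 (adjusted p = 0.0698), where its log2 fold change was 0.91. Ctla4 was at 30.1 and 28.2 against 31.8 and 42.8 CPM (0.35 ± 0.153, adjusted p = 0.17). Lgals1 was at 286 CPM in one Eµ-PRMT5/TCL1 mouse and at 114, 72.5 and 95.2 CPM in the other 3, and Pdcd1lg2, which encodes PD-L2, at 40.8 CPM in the other Eµ-PRMT5/TCL1 mouse and at 9.75, 8.88 and 10.6 CPM in the rest. Without Eµ-PRMT5/TCL1 replicate 1, 7 members of the list were higher and 4 lower.

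Homing and adhesion genes gave 1 higher and 3 lower of 15. Itgb1, the integrin chain beta 1, rose from 401 and 352 to 1080 and 715 CPM (1.25 ± 0.201, adjusted p = 0.00632), and Ccr6, a chemokine receptor of mature B cells, fell from 29.5 and 29.4 to 7.62 and 4.05 CPM (-2.33 ± 0.275, adjusted p = 0.0024). Itga4 (-0.63 ± 0.121) and Itgax fell too, and Itga4 was lost without Eµ-TCL1 replicate 2 (adjusted p = 0.0509). Of 17 tested BMP and TGF-beta genes Twsg1 rose and 3 fell. Tgfbr3, a coreceptor, was at 19.3 and 19.8 against 7.2 and 4.29 CPM (-1.76 ± 0.26), Smad7, an inhibitor of the pathway, at 47.4 and 57.5 against 23.3 and 19.7 CPM (-1.29 ± 0.201) and Smad1, a BMP transducer, at 15 and 17 against 9.28 and 6 CPM (-1.06 ± 0.211). Smad1 was lost without Eµ-TCL1 replicate 2 (adjusted p = 0.0648). The BMP targets Id1, Id2 and Id3 had log2 fold changes of -0.78, -0.77 and -0.27 and did not pass. Without Eµ-PRMT5/TCL1 replicate 1, 7 homing genes and 8 BMP and TGF-beta genes were lower, without replicate 2 of that genotype 5 BMP and TGF-beta genes were, and without Eµ-TCL1 replicate 2 only 1 homing gene was.

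Of the tested members of the NF-kB, interferon, immediate early and glycolysis lists, 20%, 15%, 5.26% and 11.8% passed. Over all genes tested the share was 11.8%. Of 15 NF-kB genes the inhibitor Nfkbie rose (0.62 ± 0.127) and Nfkbiz (-0.66 ± 0.142) and Birc3 (-0.41 ± 0.112) fell. Of 20 interferon-stimulated genes 3 fell, among them Ifit3 (26.2 and 27.5 to 11.3 and 5.77 CPM, -1.65 ± 0.318) and Ifit2 (-1.11 ± 0.225), and 19 had negative log2 fold changes. That count was 11 without Eµ-PRMT5/TCL1 replicate 1 and 2, 1 and 2 without Eµ-TCL1 replicate 1, Eµ-TCL1 replicate 2 and Eµ-PRMT5/TCL1 replicate 2. Of 19 immediate early genes, which handling of cells can induce, Ier2 fell (-0.72 ± 0.184), and of 17 glycolysis genes Tpi1 rose (0.79 ± 0.163) and Pfkm fell (-1.14 ± 0.287). Without Eµ-PRMT5/TCL1 replicate 1, 8 immediate early and 5 glycolysis genes were lower. Each gene named in this paragraph lost its call without at least 1 of the 4 libraries (adjusted p = 0.0578 to 0.158).

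**Figure D4:**
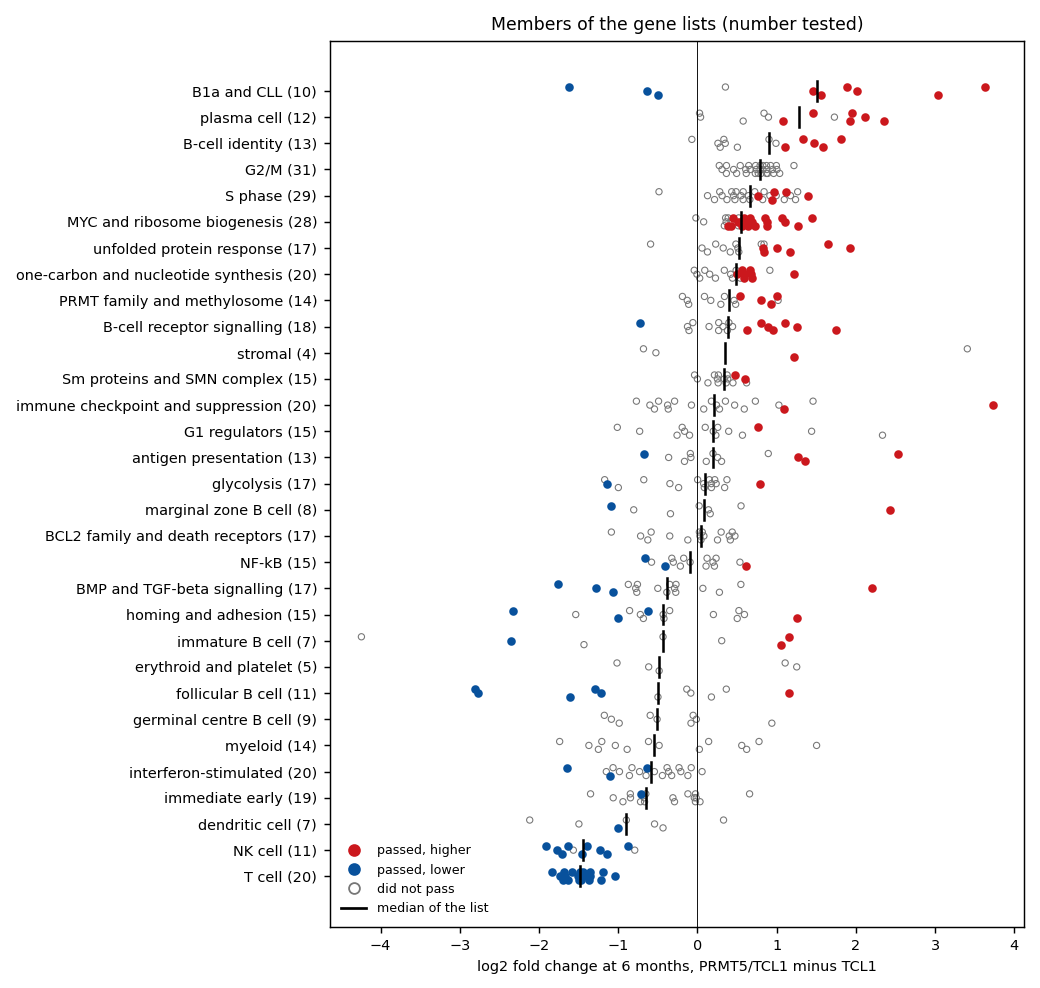
Log2 fold change at 6 months (x axis, Eµ-PRMT5/TCL1 minus Eµ-TCL1) of each tested member of 31 gene lists (y axis, number tested), 1 point per gene, with the median as a bar. Filled points passed and open ones did not, and the lists run from the B1a and CLL list, with a median of 1.51, to the T-cell list, with a median of -1.48 and all 20 members passing.

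The difference between genotypes was tested against that at 3 months by an interaction term. It differed for 736 of 18216 genes (4.04%), 404 more positive and 332 more negative at 6 months, and 733 of the 736 also passed in the comparison at 6 months with the same sign. For Twsg1 the interaction was 2.47 ± 0.161 (adjusted p = 0.00163), with means of 51.3 CPM in Eµ-TCL1 and 42.5 CPM in Eµ-PRMT5/TCL1 at 3 months. For Il10 it was 4.13, for Myc 1.53 and for Cr2 -3.16. The 2 contrasts share the libraries at 6 months, so the 733 genes are no second observation. In Eµ-TCL1, Xist had 28744 and 23648 counts at 3 months and 18 and 12 at 6 months. Sex and age thus cannot be told apart in that genotype, and the interaction holds both. The count ranged from 2 to 2274 when 1 of the 9 libraries was left out.

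The 2 Eµ-PRMT5/TCL1 mice differed from each other by more than 1 on the log2 scale in 2522 of the genes tested, 139 of them among the 2156 called, and the 2 Eµ-TCL1 mice in 1430, 52 of them called. Among the 6 genes furthest apart between the Eµ-PRMT5/TCL1 mice, 4 were high in 1 mouse alone of the 9. Fras1, an extracellular matrix protein of basement membranes, was at 674 CPM in Eµ-PRMT5/TCL1 replicate 2 and at 22.4 CPM in replicate 1, with a range of 10.8 to 38.6 CPM over the 7 remaining libraries. Trpm5, a cation channel of taste cells, was at 132 CPM in replicate 2 and 2.01 CPM in replicate 1, and Togaram2 at 34.6 and 0.416 CPM. Cubn, an endocytic receptor of kidney and gut, was at 132 CPM in replicate 1 and 2.81 CPM in replicate 2, with 1.67 to 3 CPM elsewhere. Amy2a3 was at 22.8 CPM in replicate 1 and 0.468 CPM in replicate 2 but also at 18 CPM in one Eµ-TCL1 mouse, and Erich2 at 5.38 CPM in replicate 2 and 6.34 CPM in the same Eµ-TCL1 mouse. None of the 6 passed (adjusted p = 0.119 to 0.923).

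**Figure D5:**
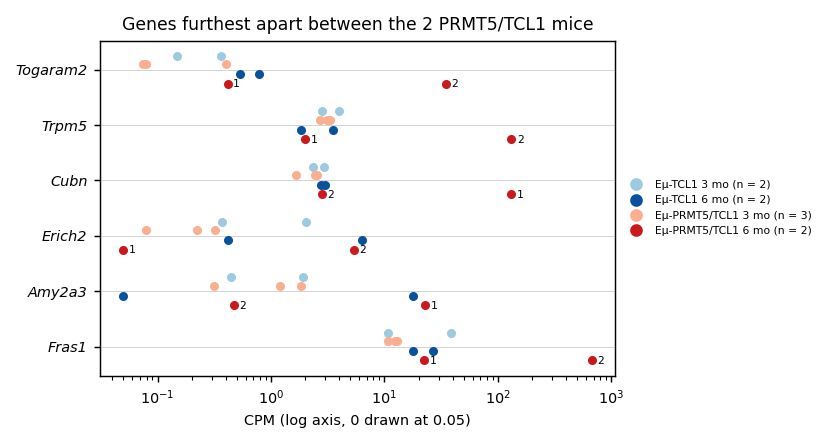
CPM (log axis, 0 drawn at 0.05) of the 6 genes that set the 2 Eµ-PRMT5/TCL1 6-month mice furthest apart, whose points carry their replicate number, 1 point per library. Fras1, Trpm5 and Togaram2 are high in replicate 2 alone and Cubn in replicate 1 alone, at 674, 132, 34.6 and 132 CPM.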

How the data were processed

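Poly(A) RNA of B cells, isolated from spleens by negative selection, was sequenced as pairs (TruSeq stranded mRNA kit, HiSeq 4000). Per the labels, the submitters' processing notes and the file headers, the authors trimmed reads with cutadapt, aligned them with STAR 2.6.0c to GRCm38 and made the deposited raw counts with featureCounts 1.4.6-p5 (Ensembl release 95, fragments, primary alignments), pooling no mice. The recorded command held no strand option, so overlapping genes on opposite strands share fragments. Gene symbols came from GENCODE M21 and matched 54809 of 54838 genes, and 4184 genes on X and Y were removed. Totals ran from 12233230 to 17330246 counts.

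Low genes were removed by filterByExpr, libraries were scaled by TMM, and all 9 libraries in 4 groups were fitted with edgeR 4.0.16 (R 4.3.3, robust quasi-likelihood F test), with contrasts between genotypes at 6 months and between that difference at 6 and at 3 months. Log2 CPM, used for the principal components and the differences between mice, had a prior count of 2. P-values were adjusted by Benjamini-Hochberg over the 18216 genes, and SE is the log2 fold change divided by the square root of F. Replicates were separate mice, whose litters and handling days are not given in the sources used here. The p-values measure the spread between these mice pooled over the 4 groups, and mice at 3 months differed less than those at 6 months. The members, gene lists and tests were chosen with earlier results of these data known. Named genes were up to 12 higher and 12 lower protein-coding autosomal genes of smallest adjusted p (ties by larger absolute log2 fold change) with an absolute log2 fold change over 1, no overlap between the groups and no provisional name, up to 4 passing members of each list with the largest absolute log2 fold change, genes from the study's text, and the 6 genes furthest apart between the Eµ-PRMT5/TCL1 mice with a mean over 1 CPM. Some genes that the rule or the lists hold are not reported here and were not replaced, while counts over lists include them. Further list members are given as values and were chosen after they were seen. Alternatives were DESeq2 1.42.0, RLE and upper-quartile scaling, other filters, thinning, covariates and leaving out each library. In a simulation of this comparison on 18216 genes, 27 of 100 genes changed by 1 on the log2 scale and 72 of 100 changed by 2 were recovered, with 9 false calls. Only these genes were changed, a smaller share than the 11.8% that passed in the data, and recovery can depend on that share. Each gene was given the same spread in all 9 libraries, without the wider spread of the mice at 6 months. The recovery and false calls therefore need not hold for this comparison. Promoter windows came from RefSeq.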

Additional observations from a re-analysis of the deposited data

Results flagged for a closer look

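The difference between Eµ-PRMT5/TCL1 and Eµ-TCL1 changed between 3 and 6 months in 736 genes by the interaction term in edgeR, among them 71 of the 113 named genes, 43 with a more positive and 28 with a more negative difference at 6 months (adjusted p from 0.00163 to 0.0496). Over all genes tested the share was 4.04%. Of the 113 named genes 102 passed at 6 months, and the interaction holds that same contrast. Their share is therefore no separate finding. Each value below is the interaction, the log2 fold change at 6 months minus the one at 3 months. The values describe 2 mice a genotype at 6 months, where sex and genotype cannot be told apart. Among the Eµ-TCL1 mice, sex and age cannot be told apart either.

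Of the leading higher genes, the interaction was Tppp 4.25, Il10 4.13, Fah 3.82, Tnfrsf8 3.63, Nrp2 2.47, Twsg1 2.47, Gas7 2.13, Alpk2 2.12, Bcar3 1.78, Sept11 1.59, Capg 1.52 and Cnn3 1.26. Among genes of B1a, plasma and immature B cells it was Zbtb32 4.17, Bhlhe41 3.76, Fcrl5 2.02, Mzb1 2.45, Prdm1 2.13, Derl3 2.15, Creld2 2.02, Myb 1.56 and Cd24a 1.31. Genes of B-cell identity and B-cell receptor signalling gave Blk 1.89, Fcrla 1.65, Ms4a1 1.44, Ly86 1.31 and Syk 1.23, and those of antigen presentation and checkpoints gave Cd80 3.08, Cd83 1.76, Cd86 1.33, Ctla4 1.24 and Cd40 -0.93. Ctla4 was the only one of the 71 that did not pass in the comparison at 6 months. Protein folding genes gave Pdia4 1.64, Hsp90b1 1.24 and Manf 1.20, genes of growth and metabolism Myc 1.53, Srm 1.48, Ppan 1.10, Nop16 1.07, Tpi1 1.01 and Rb1 0.83, and those of methylation Prmt7 1.13 and Mat2a 0.85.

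The leading lower genes gave Terb1 -3.12, Cr2 -3.16, Rapgef4 -2.46, Igfbp4 -2.12, Tdrp -1.88, Cd226 -1.85, Ifi208 -1.55, Satb1 -1.51, Tnik -1.50, Grap2 -1.40 and Limd2 -1.38. Follicular, marginal zone and homing genes gave Fcer2a -2.85, Ccr6 -2.35, Bach2 -1.38, Cd1d1 -1.35, Itga4 -0.81, Itgb1 1.31 and Cxcr5 1.23, the last 2 being positive. Genes of T and NK cells gave Klrk1 -2.07, Klrd1 -2.02, Klrc1 -2.0, Klrb1c -1.95, Trbc1 -1.77, Trbc2 -1.58, Tcf7 -1.48, Cd3g -1.48, Bcl11b -1.36 and Runx3 -1.28, beside a summed T-cell list of 1060 and 856 CPM in Eµ-PRMT5/TCL1 against 2810 and 2500 CPM in Eµ-TCL1 at 6 months, and 1770 to 2400 CPM at 3 months. The coreceptor gene Tgfbr3 gave -1.87. The part of the T-cell list in the other values was not tested gene by gene.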

How the results depend on the processing

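The count of 2156 genes at 6 months kept within 1.5 times under RLE (2150) and upper-quartile factors (2076), DESeq2 (2502), no filter (2219), a stricter filter (2123), X and Y kept (2216), immunoglobulin and T-cell receptor segments removed (1954) and thinning (2095). With upper-quartile factors 44.6% of the called genes were higher, compared with 54% in the fit reported. The count fell to 0 with only the 4 libraries at 6 months, with the Y-linked covariate and with the T-cell covariate, and ranged from 1125 to 3616 when 1 library was left out. Groups accounted for a share of the covariates' variance (R squared) of 0.679 for Y-linked expression and 0.94 for the T-cell list. The T-cell fit thus holds little that separates genotype from its covariate, and Tcf7, Cd3g and Bcl11b are members of that list. Since 0 genes passed in it, the signs given below as turned in that fit cannot be read as reversals. With the Y-linked covariate the median log2 fold change was -1.32 for the T-cell list (-1.48 in the fit reported), 1.10 for B-cell identity (0.90), 0.55 for MYC and ribosome biogenesis (0.55), 0.58 for plasma cells (1.28) and -0.03 for G2/M (0.79). Y-linked counts differed widely within a group only in Eµ-PRMT5/TCL1 at 3 months (7863, 1 and 3). The Y-linked fit therefore rests on 1 mouse there, and its medians cannot be read as values free of sex. The interaction count of 736 became 1224 with DESeq2, 0 with either covariate, and 2 to 2274 when 1 library was left out (2 without Eµ-TCL1 replicate 1 at 3 months, 2274 without Eµ-PRMT5/TCL1 replicate 1 at 6 months), and it could not be fitted with only the libraries at 6 months. Same-numbered mice did not deviate together (r = 0.027 between the 6-month pairs, which are 2), so the numbers give no pairing, and the replicate block left 952 genes at 6 months and 2 in the interaction. Where not stated, the cause of these moves was not tested.

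Of the 113 named genes, 102 passed, and 41 of these lost their call without at least 1 of the 4 libraries at 6 months (adjusted p from 0.05 to 0.24). With the T-cell covariate the log2 fold change turned sign for Pstpip2 -0.44, Mzb1 -0.041, Tcf7 0.26, Cd3g 0.19, Nop16 -0.059, Dok3 -0.13, Nfkbie -0.026, Ier2 0.015, Phgdh -0.38, Ctps -0.34, Mthfd1 -0.25, Ctla4 -0.44, Mki67 -0.036, Bcl11b 0.17, Togaram2 -9.55, Trpm5 -4.12 and Fras1 -1.76, with the Y-linked covariate for Egr1 0.058 and Amy2a3 -2.48, and with 1 library left out it ranged from -4.23 to 10.32 for Amy2a3, -0.038 to 5.52 for Cubn, -0.46 to 0.31 for Egr1, -8.54 to 2.63 for Erich2, -0.65 to 5.69 for Togaram2 and -0.41 to 5.62 for Trpm5. Some calls were also lost without a library at 3 months. Of the 9 fits that left out 1 library, Birc3 and Cdh5 were lost in 8. Cd5, Fcgr2b, Ier2 and Uhrf1 were lost in 7, and Exo1, Pfkm and Prmt2 in 6. Depth limited genes near 3 counts. With 2 mice a genotype, changes of 1 on the log2 scale were often not recovered in simulation. There, fewer genes changed than passed in the data, and all groups had the same spread.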

Other observations

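Constant segments of the immunoglobulin genes were not in any list above and were chosen for this paragraph after their values were seen. Ighm, the constant region of IgM, was at 3210 and 3700 CPM in the Eµ-TCL1 mice and at 23400 and 19900 CPM in the Eµ-PRMT5/TCL1 mice at 6 months (log2 fold change 2.65 ± 0.316 SE, edgeR adjusted p = 0.00309), and Igkc, of the kappa light chain, at 628 and 494 against 1880 and 2860 CPM (2.08 ± 0.272, adjusted p = 0.00383). Iglc3, of a lambda chain, rose as well (1.70 ± 0.181, adjusted p = 0.00188), whereas Iglc1 and Iglc2 were at 0.25 and 0.09 on the log2 scale and did not pass. Ighd, the constant region of IgD, which mature naive B cells carry together with IgM, fell from 200 and 261 to 74.2 and 97.5 CPM (-1.42 ± 0.253, adjusted p = 0.0107). The switched isotypes did not pass, and the 2 Eµ-PRMT5/TCL1 mice differed widely in them. Ighg2b was at 2950 CPM in replicate 1 and 29.7 CPM in replicate 2, and Ighg2c at 1790 and 63.5 CPM. Over all immunoglobulin segments the share of counts was 0.887% and 0.723% in Eµ-TCL1 and 3.56% and 2.67% in Eµ-PRMT5/TCL1. Segments of near-identical sequence can share fragments, so single segments are uncertain.

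Genes with the largest difference in CPM among those that passed were also looked up after the values were seen. Ahnak, a giant scaffold protein under the cell membrane, rose from 4050 and 4010 to 15500 and 11300 CPM (1.73 ± 0.173, adjusted p = 0.00159), and lay between 2740 and 3310 CPM in the 5 mice at 3 months. Vim, the intermediate filament vimentin, rose from 520 and 590 to 1790 and 1050 CPM (1.36 ± 0.227), the chaperone gene Hspa8 from 688 and 698 to 1910 and 1570 CPM (1.33 ± 0.219) and Cacna1e, a voltage-gated calcium channel, from 175 and 184 to 608 and 1260 CPM (2.38 ± 0.442). Ms4a4b, a membrane protein known from T cells, fell from 478 and 356 to 136 and 110 CPM (-1.77 ± 0.209), beside the fall of the T-cell list, and Lyst, a regulator of lysosome size, from 1070 and 1130 to 821 and 710 CPM (-0.53 ± 0.109).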
